A study of Capra hircus with 24 samples.

Results

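The comparison described here set blood nuclear cells of white goats against those of fawn goats. Its members were the 8 of 24 arrays that carried RNA from peripheral nuclear cells of blood (PNCB), chosen by their labels and not by any measured value. The white goats were 4 Polish White Improved animals (PWI) and the fawn goats 4 Polish Fawn Improved animals (PFI), all healthy females in lactation number 3, with 1 array per goat. The other 16 arrays held RNA of milk somatic cells (MSC) and milk fat globules (MFG) labelled with the same breeds and goat numbers. The question the labels set up is whether the breeds differ in any of the 3 RNA sources, here in blood. On every array the goat's own RNA was labelled with the red dye Cy5. The green dye Cy3 carried a common reference, pooled RNA of blood nuclear cells of 7 healthy goats in lactation number 4 (4 PWI and 3 PFI), and no array had the dyes swapped. A value in blood is therefore the level of a transcript in the blood of one goat relative to the pooled blood of both breeds. Blood was mixed with a red cell lysis buffer before its RNA was extracted, in both breeds with the same kit, which was not the kit used for milk. The 4 PWI arrays lay together on 1 slide and the 4 PFI arrays on another, so in every blood result slide and breed cannot be told apart.

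The nuclear cells of blood are the white cells. They comprise lymphocytes, which carry adaptive immunity, monocytes, which become tissue macrophages, and granulocytes, chiefly neutrophils that are recruited to infected tissue such as the udder. In whole blood a change in the mix of these cells and a change of transcription within one of them both move a transcript's level, and the 2 cannot be told apart in bulk RNA. The array was designed for cattle and was hybridised here with goat RNA. The files give each probe a name and a transcript accession but no gene symbol, and the goat gene table used here (assembly ARS1.2) held 0 of the 26748 accessions. Transcripts are therefore named by probe and accession, no role is given for them, and the markers of lymphocytes, monocytes, granulocytes, platelets and red cells were not analysed here. Probe sequences were not used here, so how closely a cattle probe matches the transcript of either goat breed was not tested.

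The number of detected probes was alike between the breeds in the sample channel, and the arrays differed most in the reference channel. The share of the 43653 probes with a Cy5 signal well above background was 62.8% ± 3.64 in PWI and 62.9% ± 1.39 in PFI (SD, n = 4 each). The share with a Cy3 signal well above background lay between 43.2% and 45.6% on the 4 PFI arrays. It was 46.5% and 44.5% on the arrays of PWI goats 1 and 2, but 20.4% and 19.9% on those of PWI goats 3 and 4, although the same reference RNA was on all of them. The scanner software marked 1.84% to 3.04% of the spots as outliers on the PFI arrays and 2.07% and 2.06% on those of PWI goats 1 and 2. On the array of PWI goat 3 it marked 8.43%, and on that of PWI goat 4 it marked 21.1%, or 9252 spots, of which 8655 carried a mark for the local Cy3 background. The slope of measured against designed log ratio over the spike-in controls was 0.760 to 0.803 in PFI, 0.787 and 0.780 in PWI goats 1 and 2, and 0.645 and 0.567 in PWI goats 3 and 4. None of 8 such array measures differed between the breeds in an exact permutation test (two-sided, p from 0.143 to 1, where 4 arrays against 4 cannot go below 0.0286).

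On the array of PWI goat 4 the marked spots lay in one region. Rows 337 to 532 of the array held 8843 of them (95.6%), and 55.1% of the spots in those rows were marked against 1.47% in the rest of the array. The median Cy3 intensity of a band of 28 rows was 84 to 105 up to row 336 and reached 2320 in the last band, while the median Cy5 intensity of every band stayed between 62 and 71.5. On the array of PWI goat 3 the median Cy3 intensity rose from 103 in the first band to 267 in rows 337 to 364 and was 135.5 in the last. The other 6 arrays showed no such course, with both dyes level from top to bottom. Marked spots were left out before the ratios were made, so a probe in the lower rows often had a value from only 3 PWI goats. A course down the array remained in the normalized ratios of unmarked spots. The median log2 ratio of a band lay between −0.26 and 0.60 on the array of PWI goat 3. It lay between −0.28 and 0.28 on that of PWI goat 4, and between −0.03 and 0.12 on the other 6. The part of this course in the results below was not tested.

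**Figure D1:**
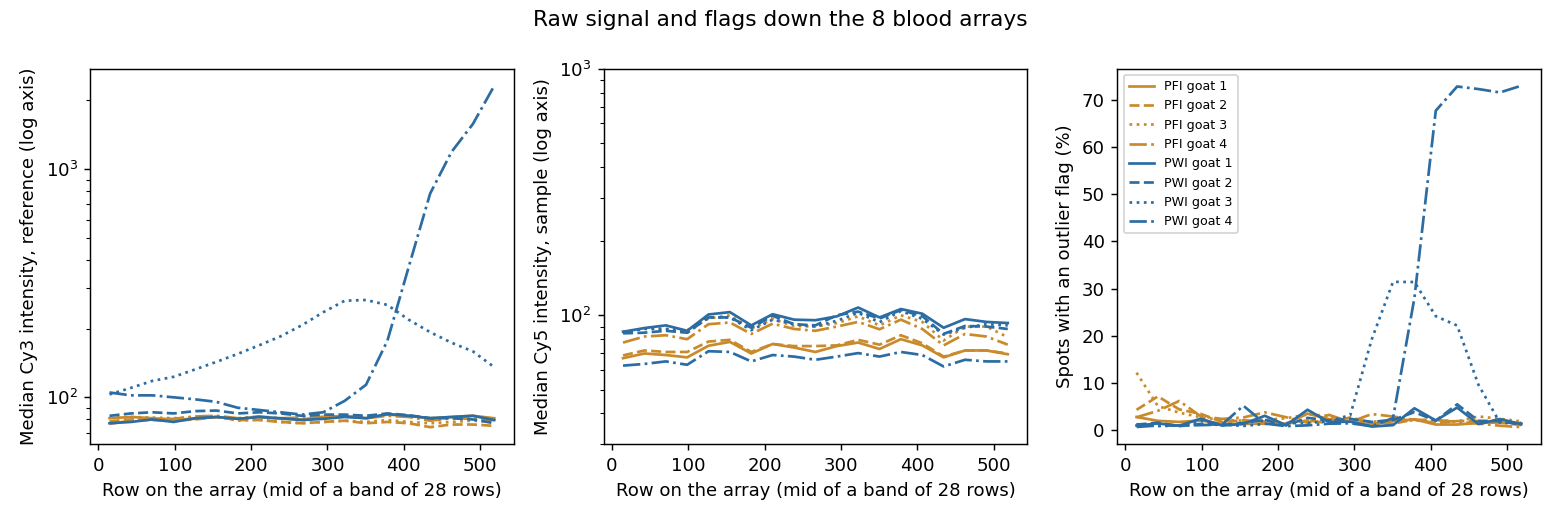
Median Cy3 intensity (left, log axis), median Cy5 intensity (middle, log axis) and percent of spots marked as outliers (right) against the row on the array, in bands of 28 rows, with 1 line per blood array (blue PWI, ochre PFI). The Cy3 line of PWI goat 4 climbs to 2320 at the bottom of the array and that of PWI goat 3 peaks at 267, while the Cy5 lines of all 8 arrays stay flat.

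Between the breeds, 3 probes were higher in white goats and none was lower. They were A_73_120401 (accession NM_174213), A_73_107408 (NM_206843) and A_73_105187 (NM_001075950), with ratios to the reference 9.76, 6.12 and 4.87 times as high in PWI as in PFI. These 3 were the probes past an adjusted p of 0.05 (Benjamini-Hochberg) among 27405 tested with limma, or 0.0109%. All ratios were made after an offset of 50 was added in each channel, which shrinks the differences of dim spots. At an unadjusted p under 0.05 there were 975 probes (3.56%), 609 higher in PWI (2.22%) and 366 lower (1.34%). When each array was left out in turn, that unadjusted count ran from 466 without PFI goat 2, and 599 without PFI goat 1, to 1927 without PWI goat 4. Without both PWI goats 3 and 4 it was 1877, with 850 higher and 1027 lower, and 6 probes passed the adjusted threshold, the same 3 among them. The 3 calls were lost when marked spots were kept or were left out only after background correction. All 3 called probes belonged to the 5780 tested probes with no value on the array of PWI goat 4 (0.0519% called, 6.68% at an unadjusted p under 0.05). Of the 21625 with a value there, 0 were called by limma and 589 had an unadjusted p under 0.05 (2.72%).

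For most probes the ratios of the breeds lay close together, on a scale that the added offset compresses. The median difference of the log2 ratios over all tested probes was 0.04, and the median size of a difference was 0.15, with 95% of probes under 0.52. At least 2-fold, 43 probes had the higher mean in PWI and 49 in PFI. The 95% interval of the difference lay wholly within 2-fold in either direction for 86.9% of tested probes. The median net Cy5 intensity was 28 to 58 on PWI and 36 to 54 on PFI arrays, near the offset of 50. That share is therefore of offset ratios and does not bound the difference in transcript level of dim probes. For the other probes the data do not bound the difference to under 2-fold even on that scale. The ratios varied more among the PWI arrays than among the PFI arrays, with a median SD of 0.36 against 0.21 on the log2 scale. This was taken over the 14759 probes with a value and a Cy5 signal well above background on all 8 arrays. The PWI arrays include those of goats 3 and 4 with uneven Cy3, whose part in the spread was not tested. Over the same probes PWI goats 1 and 2 differed by a median size of 0.181, where pairs within PFI ranged from 0.124 to 0.305. In that set, all 4 PWI goats were above all 4 PFI goats for 226 probes (1.53%) and all below them for 111 (0.752%). Of these 14759 probes, 0 passed the adjusted threshold in limma and 435 (2.95%) had an unadjusted p under 0.05.

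**Figure D2:**
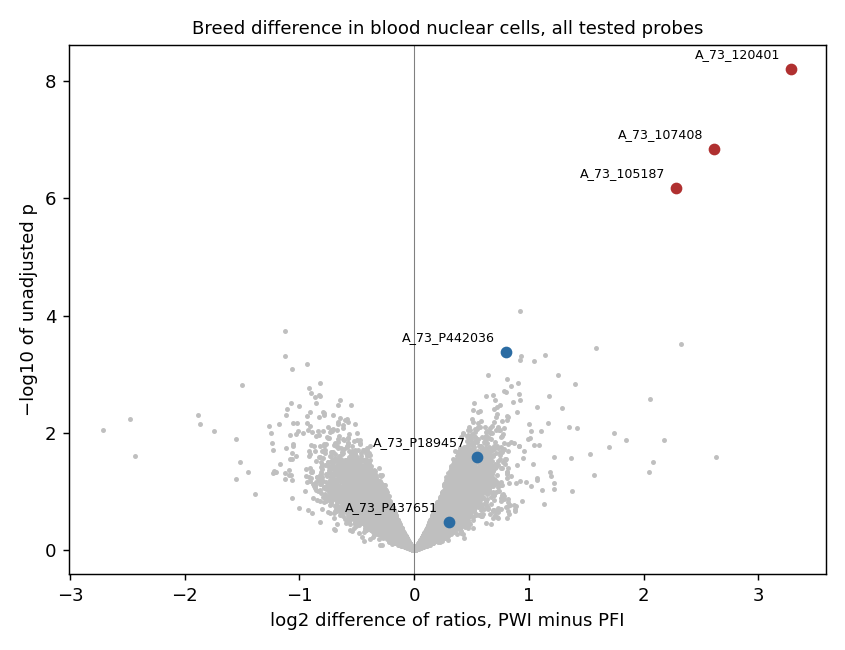
Difference of mean log2 ratios, PWI minus PFI, in blood nuclear cells (horizontal) against −log10 of the unadjusted p from limma (vertical), 1 point per tested probe, with the 3 called probes in red and the other tested probes of their accessions in blue. The red points stand apart at log2 differences of 3.29, 2.61 and 2.28, and the blue points lie at 0.80, 0.55 and 0.30, the middle one (A_73_P189457) with no PFI signal well above background. All differences are of ratios after an offset of 50 in each channel, which shrinks those of dim probes.

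Probe A_73_120401 had the largest called difference. Its Cy5 intensity over local background was 1491, 1364.5, 1829 and 1997 in PWI goats 1 to 4 and 23, 22, 18 and 23.5 in PFI goats 1 to 4. Every white goat thus carried a bright signal and every fawn goat a signal near the limit of detection, well above background on 3 of the 4 PFI arrays. The reference on the same spots read 153, 118.5 and 155.5 on the arrays of PWI goats 1 to 3 and 137 to 154.5 on the PFI arrays, alike on both slides, but 1295 on that of PWI goat 4. That spot was marked for its Cy3 background and left out. The log2 ratios were 1.22, 1.17 and 1.53 in the 3 PWI goats left and −1.87, −1.95, −2.08 and −2.02 in the PFI goats. Their means of 1.31 ± 0.19 (SD, n = 3) and −1.98 ± 0.09 (SD, n = 4) differed by 3.29 (SE 0.16, limma adjusted p = 0.000167), or 9.76-fold with a 95% interval of 7.56 to 12.6. That fold and its interval are of ratios to which an offset of 50 was added in each channel, more than the whole net signal of the PFI spots. The median net Cy5 intensity was 1660 in PWI and 22.5 in PFI. Pooled blood of both breeds lay between the breeds for this transcript. In milk the signal lay near background in both breeds, well above background on 0 of 8 MSC and 1 of 8 MFG arrays, with net Cy5 intensities of 4 to 16 and 2 to 113. The log2 differences there were −0.06 in MSC (limma adjusted p = 0.993) and −0.20 in MFG (limma adjusted p = 0.637). In the offset ratios the breed difference differed between the sources (F-test of breed by source in limma on all 24 arrays, adjusted p = 4.21e-08). It also did so with the goat as a block shared by its 3 sources (adjusted p = 6.62e-06, an alternative chosen after seeing the data). Both tests reuse the blood values by which the probe was called and set them against milk values at background. They are therefore not independent support for a difference between sources. The milk signals at background do not bound a breed difference there. This was the single tested probe of its accession. It passed the filter on dim probes through white goats' blood, where it is high, and with a filter on all 8 blood arrays it was not tested and 2 calls were left.

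Accession NM_001075950 was measured by 3 tested probes, of which 1 was called. Probe A_73_105187 had net Cy5 intensities of 1190, 962, 1199.5 and 858.5 in PWI goats 1 to 4 and of 52.5, 62, 62.5 and 56 in the PFI goats. The lowest white goat was far above the highest fawn goat, and the reference on the same spots read 125 to 133.5 on 3 PWI arrays, 112 to 119 on the PFI arrays and 988 on that of PWI goat 4, which was left out. The log2 ratios of 1.16, 0.70 and 1.33 in PWI (mean 1.06 ± 0.33, SD, n = 3) and of −1.11, −1.13, −1.36 and −1.28 in PFI (−1.22 ± 0.12, SD, n = 4) differed by 2.28 (SE 0.19, limma adjusted p = 0.00604), or 4.87-fold (95% interval 3.61 to 6.56). The offset of 50 was close to the net signal of the PFI spots, so that fold is compressed as well. Without PWI goat 1 the limma adjusted p of this probe was 0.0915. In milk its log2 difference was −0.02 in MSC (limma adjusted p = 0.999) and −0.13 in MFG (limma adjusted p = 0.722), and net Cy5 intensities were 25.5 to 48.5 and 31 to 290. The breed difference of A_73_105187 also differed between the sources (limma F-test, adjusted p = 8.39e-05, and 0.000848 with the goat as a block), and this probe was well above background in all of them. These tests too reuse the blood values by which the probe was called. Its net signals in MSC lay below the offset of 50, which compresses a difference there.

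The other probes of NM_001075950 lay elsewhere on the array and had values from all 8 goats. Both passed the filter on dim probes only through white goats' blood, where they are high. Their lack of overlap and the mean of the accession are therefore not independent support for the call. For A_73_P442036 the net Cy5 intensity was 216.5, 181, 235 and 193 in PWI and 9, 23.5, 17 and 20 in PFI. The breeds did not overlap, and the log2 ratios of 0.21, 0.16, −0.01 and 0.50 against −0.65, −0.61, −0.41 and −0.67 gave a difference of 0.80 (SE 0.16) that did not pass the test (limma adjusted p = 0.972). The offset of 50 was more than the net signal of its PFI spots. Its median net Cy5 intensity was 204.75 in PWI and 18.5 in PFI. For A_73_P189457 the net Cy5 intensity was 32.5, 42, 56 and 33 in PWI and 5, 7, 6 and 8 in PFI. That probe was well above background on all 4 PWI arrays and not well above background on any PFI array, so its level in PFI has only an upper bound, no fold is given, and it did not pass either (limma adjusted p = 0.972). The mean of the 3 probes, that one included, differed by 1.17 on the log2 scale (SE 0.14), with a limma adjusted p of 0.0606 over 16829 accessions. Of those accessions 1 passed, NM_174213 with its single probe (0.00594%), and 579 (3.44%) had an unadjusted p under 0.05.

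**Figure D3:**
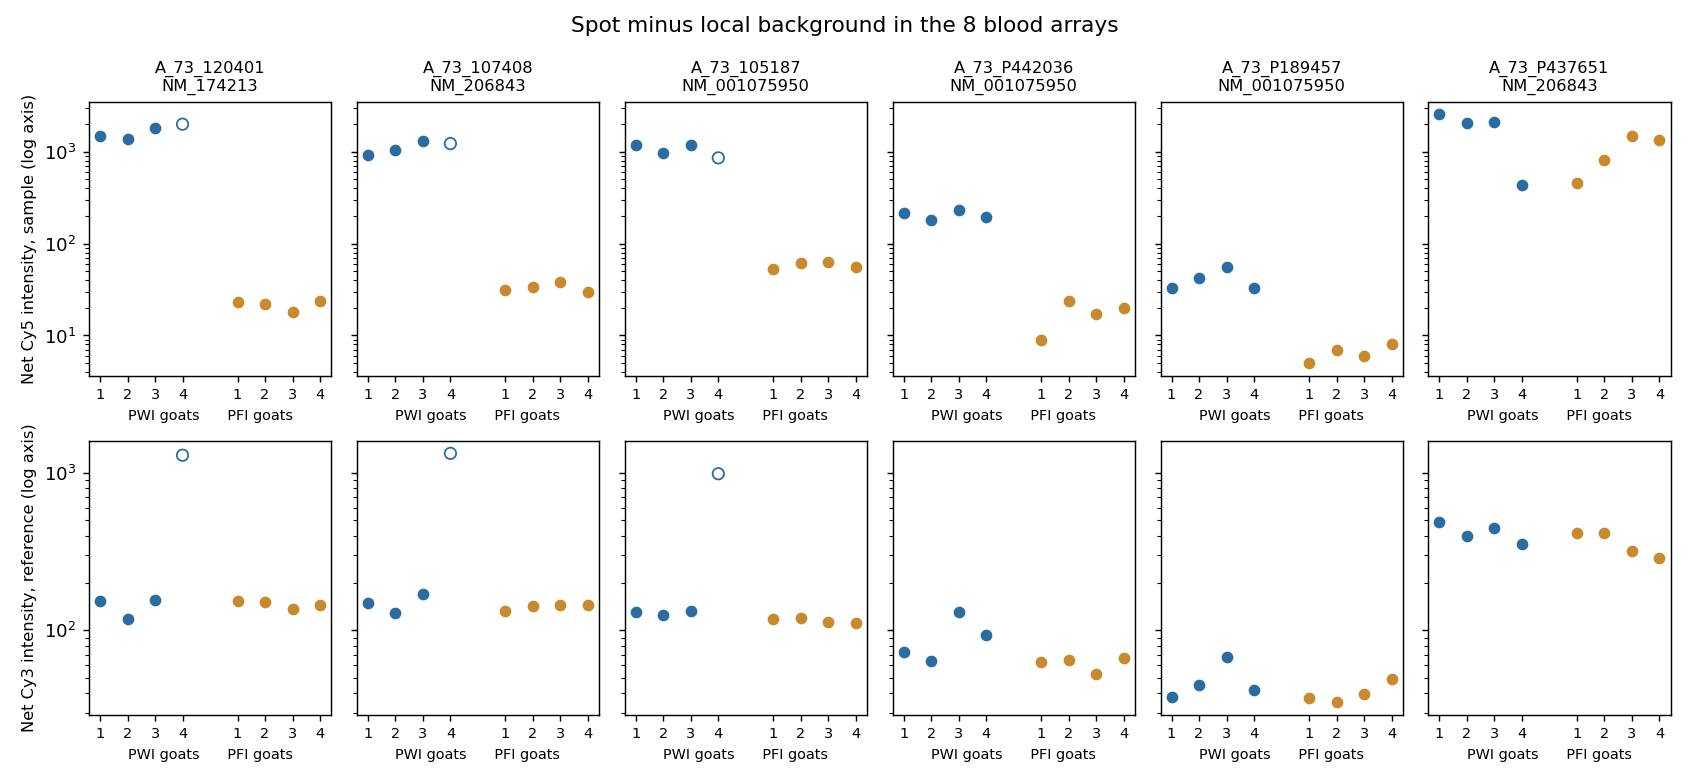
Intensity over local background on log axes for the 3 called probes and the other 3 tested probes of their accessions, with Cy5 (the goat's own RNA) in the upper row and Cy3 (the common reference) in the lower row, 1 point per goat, PWI in blue and PFI in ochre. Open circles are the spots of PWI goat 4 that were marked for Cy3 background and left out of the ratios, where Cy5 stands with the other PWI goats and Cy3 stands at 988 to 1331.

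Probe A_73_107408 of accession NM_206843 was higher in white goats in blood, and its ratios stood apart in the same direction in both milk sources. In blood its net Cy5 intensity was 929.5, 1053, 1320.5 and 1228.5 in PWI and 31, 34, 38.5 and 30 in PFI, again with no overlap. The spot of PWI goat 4, with a reference reading of 1331 against 129 to 170 on the other 3 PWI arrays and 132 to 145 in PFI, was left out. The log2 ratios were 0.68, 0.75 and 1.03 in PWI (mean 0.82 ± 0.18, SD, n = 3) and −1.52, −1.69, −1.98 and −1.97 in PFI (−1.79 ± 0.22, SD, n = 4). They differed by 2.61 (SE 0.18, limma adjusted p = 0.00198), or 6.12-fold with a 95% interval of 4.59 to 8.17. That fold and its interval are compressed too, as the offset of 50 was more than the net signal of the PFI spots. The median net Cy5 intensity was 1140.75 in PWI and 32.5 in PFI. This probe was well above background on all 24 arrays, whereas A_73_120401 was so on 0 of 8 MSC arrays.

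In milk somatic cells the net Cy5 intensity of A_73_107408 was 981.5 to 1367 in PWI and 43 to 302 in PFI. Its log2 ratios averaged 1.80 ± 0.43 and −0.60 ± 0.48 (SD, n = 4 each), a difference of 2.40 (SE 0.28) that did not pass the adjusted threshold (limma adjusted p = 0.301). No probe passed in MSC (0% of 27410 in limma), where 1200 (4.38%) had an unadjusted p under 0.05. In milk fat globules the net intensity was 1016 to 1706.5 in PWI and 32 to 65 in PFI. The log2 ratios averaged 2.12 ± 0.59 and −1.03 ± 0.32 (SD, n = 4 each), a difference of 3.15 (SE 0.29, limma adjusted p = 0.0178), 8.86-fold, one of 4 probes called there (0.0146%). That call was lost without PWI goat 3, without PWI goat 4 or without any single PFI goat, with limma adjusted p between 0.0745 and 0.119. The blood, MSC and MFG arrays of a goat number share the animal as labelled, so the 3 sources are not independent samples of the breeds. The breed difference was not shown to differ between sources (limma F-test, adjusted p = 0.773).

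The second tested probe of NM_206843 gave another picture. A_73_P437651 had net Cy5 intensities of 2561, 2083, 2117 and 435.5 in PWI and of 459, 821.5, 1467 and 1338.5 in PFI. The breeds overlapped, with PWI goat 4 below all 4 fawn goats in net Cy5 intensity. In log2 ratios, which were tested, PWI goat 4 stood at −0.70, above PFI goat 1 at −1.16. The log2 difference of this probe was 0.30 (SE 0.30, limma adjusted p = 0.972) in blood, −0.19 in MSC and 0.03 in MFG. The mean of both probes of the accession differed by 1.27 (SE 0.26, limma adjusted p = 0.985).

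**Figure D4:**
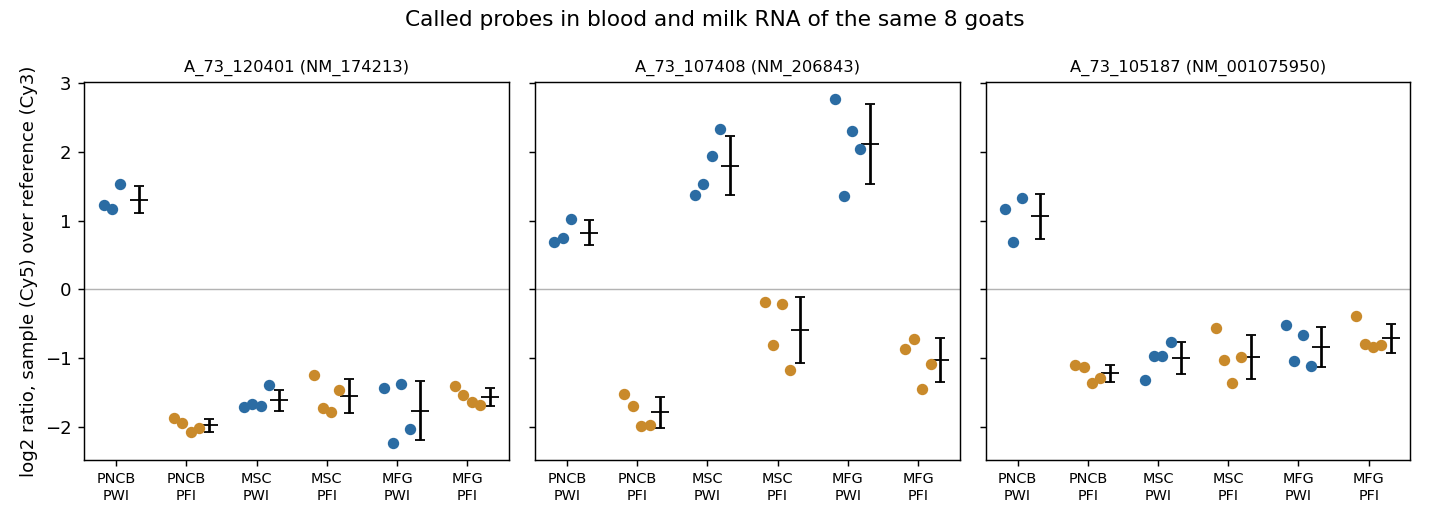
Log2 ratio of Cy5 over Cy3 for the 3 called probes in blood nuclear cells (PNCB), milk somatic cells (MSC) and milk fat globules (MFG), 1 point per goat with the mean and SD of each group, PWI in blue and PFI in ochre. A_73_107408 stands higher in PWI in all 3 sources, whereas A_73_120401 and A_73_105187 stand higher in PWI in blood and overlap between the breeds in milk.

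The calls depended on how marked spots were handled and in which order. Marked spots were left out before the background correction, an order chosen after a run that kept them had given 0 calls. When they were left out after it instead, the log2 differences of A_73_120401, A_73_107408 and A_73_105187 were 2.68, 2.09 and 1.92, and 0 probes passed in limma (lowest adjusted p = 0.966, 801 probes or 2.92% at an unadjusted p under 0.05). With all marked spots kept, which returns PWI goat 4 with its high reference readings, the log2 differences were 2.35, 1.74 and 1.55, and again 0 probes passed in limma (lowest adjusted p = 0.882, 344 probes or 1.25% at an unadjusted p under 0.05). Both settings also ended the breed by source calls of A_73_120401 and A_73_105187. A further setting, chosen after seeing the data, used the Cy5 channel alone, quantile normalized. Background marks were ignored in it so that all 4 goats of each breed counted. There the 3 probes passed and differed by 3.97, 3.29 and 2.88 (limma adjusted p = 0.00796, 0.0110 and 0.00358), or 15.6-, 9.75- and 7.34-fold. In the same setting A_73_P442036 differed by 1.55, 2.93-fold (limma adjusted p = 0.201). Without both PWI goats 3 and 4 the differences of the 3 probes in the ratios were 3.18, 2.51 and 2.15 (limma adjusted p = 0.000124, 0.00254 and 0.00704). In the authors' deposited table of scanner log ratios, fitted on the same arrays, they were 6.51, 4.90 and 3.96 on the log2 scale (limma adjusted p = 0.00108, 0.0131 and 0.0172). Marked spots were left out of that table too, so PWI goat 4 again gave no value for the 3 probes.

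The 3 called spots lay near each other, in rows 445, 447 and 449 of the array and columns 27, 37 and 10, inside the region of marked spots of PWI goat 4. Their neighbours were also higher in PWI on the median, by less. Among the 78 tested probes within 5 rows and 5 columns of A_73_120401 the median log2 difference was 0.24, with a range of −0.70 to 0.81, and 14 (17.9%) had an unadjusted p under 0.05. For A_73_107408 the 67 neighbours had a median of 0.15 and a range of −0.82 to 0.66, with 4 (5.97%) under it. Around A_73_105187 the 77 neighbours had a median of 0.32 and a range of −0.47 to 0.74, with 8 (10.4%) under it. Over all tested probes the median was 0.04 and 3.56% were under it. The part of the region in the calls was not tested.

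Below the threshold the 20 probes with the smallest unadjusted p were described, 10 in each direction, among those measured on all 8 arrays, with 1 probe per accession. The 10 higher in PWI had log2 differences of 0.63 to 1.40 (median 0.85) and the 10 lower had −1.50 to −0.70 (median −0.84), all with a limma adjusted p of 0.972. The breeds did not overlap for 9 of the higher and 7 of the lower probes, which the choice by p favours. Over all 14759 probes measured on all 8 arrays, 1.53% had every PWI goat above every PFI goat and 0.752% every one below. Among the lower ones, A_73_102697 (TC411384) had log2 ratios of 0.38, −0.22, 0.25 and 0.05 in PWI and of 1.39, 1.60, 1.12 and 0.62 in PFI, a difference of −1.07 (SE 0.23). A_73_101846 (NM_001075942) had −0.30, −1.61, −0.92 and −0.55 in PWI and 0.14, 1.01, 1.38 and 0.09 in PFI, a difference of −1.50 (SE 0.35) with a wide spread in both breeds. In the milk sources of the same goats, which did not choose them, 8 of the 10 higher probes had the same sign in MSC, 3 of them at an unadjusted p under 0.05, where 1.75% of all MSC probes were higher in PWI at that level. In MFG 8 had the same sign and 1 was under it, against 1.74% of all. Of the 10 lower, 9 had the same sign in MSC, 1 of them under it against 2.63% of all, and 10 in MFG, 2 of them under it against 6.84% of all. The share of all tested probes with each sign was not counted, so the counts of signs have no base rate beside them. At that level more probes were lower than higher in PWI in MSC (2.63% against 1.75%) and in MFG (6.84% against 1.74%).

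The blood probes at an unadjusted p under 0.05 were looked up in the milk of the same goats. Of the 609 higher in PWI in blood, 21 (3.45%) were so in MSC, against 1.75% of all MSC probes, and 27 of 608 (4.44%) in MFG, against 1.74%. Of the 366 lower in blood, 21 (5.74%) were so in MSC, against 2.63%, and 34 (9.29%) in MFG, against 6.84%. In the opposite direction lay 15 of 975 (1.54%) in MSC and 38 of 974 (3.90%) in MFG. These counts pool the probes higher and lower in blood, so no single base rate stands beside them. Of all probes, 1.75% were higher and 2.63% lower in PWI in MSC (4.38% in either direction). In MFG 1.74% were higher and 6.84% lower (8.58% in either direction). These shares were not tested. Across the 6277 probes measured on all 24 arrays, the breed differences correlated at 0.0473 between blood and MSC and at 0.0519 between blood and MFG, with 0.164 between the milk sources. Probes are not independent, and the sources share animals and array positions, so these correlations carry no test.

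Breed was not the main axis of variation among the blood arrays. Over the 14759 probes measured on all 8, breed accounted for 12.2% of the summed squares of log2 ratios, where its share of the degrees of freedom is 14.3% (exact permutation test, p = 0.543). The first 2 principal components held 42.8% and 29.8% of the variance. PWI goats 1 and 2 lay beside PFI goats 3 and 4, whereas PWI goat 3 lay alone at one end of component 1 and PWI goat 4 at the other, next to PFI goats 1 and 2. The arrays of PWI goats 3 and 4 were those with uneven Cy3, and a course down the array remained in their ratios. Its part in the share of breed, in that permutation test and in the components was not tested. The median size of the log2 difference between 2 arrays was 0.161 for PWI goat 1 and PFI goat 4 and 0.211 for PWI goat 4 and PFI goat 1, both smaller than the 0.379 between PWI goats 1 and 4. Pairs within PWI ranged from 0.181 to 0.548, pairs within PFI from 0.124 to 0.305 and pairs between breeds from 0.161 to 0.520. The share of net Cy5 signal in the 100 brightest probes was 21.6% in PWI goat 4 and 21.1% and 20.5% in PFI goats 1 and 2, against 15.9% to 17.4% in the other 5 goats. The same 3 arrays had the lowest median net Cy5 intensities, at 28, 36 and 37 against 48.5 to 58, and the part of these measures in the pattern was not tested.

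**Figure D5:**
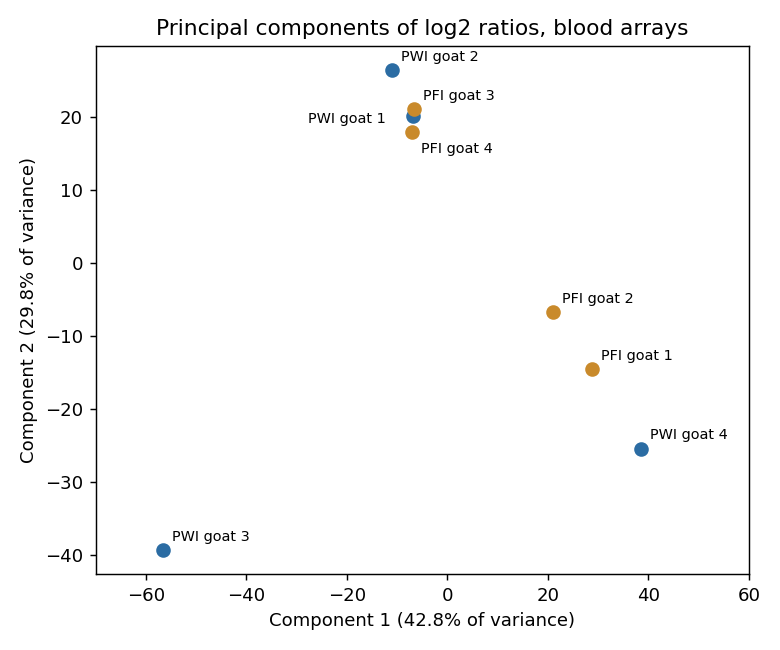
Scores of the 8 blood arrays on the first 2 principal components of the log2 ratios of 14759 probes (42.8% and 29.8% of the variance), PWI in blue and PFI in ochre. The breeds interleave, and PWI goats 3 and 4, whose arrays had uneven Cy3, lie far from PWI goats 1 and 2.

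The reference channel was compared between the slides, since the same RNA was on each array. Normalized alone, Cy3 gave 0 of 27405 probes past the adjusted threshold in limma between the 2 slides (0%), with 1334 (4.87%) at an unadjusted p under 0.05. Cy3 was the uneven channel on the arrays of PWI goats 3 and 4, which limits what this comparison could detect. With single arrays left out the unadjusted count ran from 629 (without PFI goat 2) to 2539 (without PWI goat 1). The goats' own channel gave 3 with the same test when normalized alone, the same 3 probes, and 1175 (4.29%) at an unadjusted p under 0.05. What the slides add to the Cy5 channel alone was not tested.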

How the data were processed

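Per the file headers, the deposited scanner files give for each dye the median intensity of the spot and of its local background, produced by Agilent Feature Extraction (version 10.7.3.1, per the submitters' processing notes) and not normalized. The deposited 0 or 1 marks per spot and the build name bosTau6 also come from the file headers. The authors' deposited table contains log10 ratios, Cy5 to Cy3. They are identical to the log ratios in the scanner files (largest difference 0), which settles scale and direction. Its array medians were 0 on 6 blood arrays, 0.00743 on that of PWI goat 3 and 0.0745 on that of PWI goat 4.

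With R 4.3.3 and limma 3.58.1, spots with any outlier mark were left out, intensities were corrected by normexp (offset 50) and log2 ratios were normalized by loess within arrays, with controls at weight 0. Spots of one probe were averaged. Of 45220 spots, 43803 were not controls and gave 43653 probes. No spot was saturated (0). Tested probes had to be well above background in Cy5 on every array of 1 or more of the 6 source and breed groups, which kept 27411 probes, 27405 of them with values in blood. Breeds were compared on the 8 blood arrays with lmFit and eBayes, Benjamini-Hochberg adjustment and a threshold of 0.05. The interaction with source used all 24 arrays. A fold is that of ratios to the reference after the offset, which compresses it where a signal is dim. Array counts limit the precision, and each goat is 1 sample.

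Probes named were all those called, the other tested probes of their accessions, and the 10 with the smallest p in each direction among those above background and with values on all 8 blood arrays, 1 probe (the brightest) per accession. The gene and cell marker lists drawn up for blood were not run, as no probe has a symbol. The comparison, the order of steps and the lists were chosen with earlier results of these data known, the order after a run with all marked spots kept had given 0 calls. The code was tested on simulated data.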

Additional observations from a re-analysis of the deposited data

Results flagged for a closer look

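Among 41 groups of 4 values, 3 held a value that stood apart from the rest, and by chance about 1 in 20 would. The median net Cy5 intensity of the PWI blood arrays was 28 in goat 4, against 53.5 to 58 in goats 1 to 3. In the second group A_73_120401 in milk somatic cells of PWI had a log2 ratio of −1.39 in goat 4 and −1.72 to −1.67 in the others, on arrays where the probe was not well above background. In the third, A_73_105187 in milk fat globules of PFI stood at −0.40 in goat 1 and −0.84 to −0.80 in the others. The breed difference of 2 called probes differed between blood, milk somatic cells and milk fat globules by a limma F-test on 24 arrays, A_73_120401 with an adjusted p of 4.21e-08 and A_73_105187 with 8.39e-05. That test reuses the blood values by which both probes were called, and the milk values of A_73_120401 lay near background.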

How the results depend on the processing

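Of the 3 blood calls, 0 remained with all marked spots kept (344 probes at an unadjusted p under 0.05), with marked spots left out after normexp (801), with marks on the spot alone used (347, chosen after seeing the data), and among the 16902 probes with values on all 8 arrays (435), where the 3 called probes were not tested. There were 5 calls in the authors' deposited log ratios (with marked spots left out), 24 with array weights (18 higher, 6 lower), 9 in the fit of all 24 arrays and 6 without PWI goats 3 and 4 (chosen after seeing the data), each including the 3. There were 2 among probes above background on all 8 arrays and 1 over accession means. Leaving out each array gave 2 to 4 calls. In the authors' deposited log ratios the unadjusted calls split 2239 higher to 567 lower with a median difference of 0.29, against 609 to 366 and 0.04. Without background correction they split 498 to 429, and with the Cy5 channel alone 558 to 617. The count of accessions, 1, became 0 in the first 4 of these settings, 2 with median centring or no filter on dim probes, 3 with the Cy5 channel alone (with or without background marks), 4 in the deposited ratios and without PWI goats 3 and 4, 14 with array weights and 5 in the fit of 24 arrays, and was 1 to 3 when arrays were left out. The Cy5 setting without background marks was chosen after seeing the data.

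With the goat number as a replicate block, 0 probes passed in limma (737 at an unadjusted p under 0.05) and the 3 differed by 3.27, 2.55 and 2.26 (adjusted p = 0.0636, 0.178 and 0.319). The deviations of goats of one number correlated at −0.32, −0.28, 0.09 and −0.55, and those of goats of unlike number at −0.55 to 0.61. Whether the numbers pair goats of the 2 breeds was not tested. With marked spots left out after normexp the 3 differed by 2.68, 2.09 and 1.92, with spot marks alone by 2.47, 1.85 and 1.63, and with median centring by 4.45, 3.65 and 3.24. The 2 breed by source calls were lost with all marked spots kept (adjusted p = 0.973), left out after normexp (0.494 for A_73_120401 and 0.406 for A_73_105187) or with spot marks alone (0.977). The A_73_107408 call in MFG was lost in the same 3 settings (0.931, 0.938 and 0.581). A_73_P442036 passed with median centring (1.59, adjusted p = 0.00676), array weights (0.0353) and the 24-array fit (0.0177). Uncalled milk differences changed sign. In MSC, A_73_120401 was 0.54 with marked spots kept or left out after normexp, 0.53 with spot marks alone, 0.0187 without background correction and −0.14 to 0.0390 with arrays left out. A_73_105187 was 0.30 in each of the first 3, 0.0017 without background correction, 0.0256 with median centring, 0.17 in the deposited ratios and −0.15 to 0.12 with arrays left out, above 0 without PWI goat 1 (0.08) or PFI goat 1. In MFG, A_73_120401 was 0.0439 with median centring, and A_73_105187 was 0.13 with median centring and 0.23 in the deposited ratios. The cause of these changes was not tested. The alternative without arrays of a spike-in slope under 50% of the median was not run, since no blood array lay that low (lowest 0.567, median 0.788). The main limits are 4 goats a breed, 1 slide a breed, and the uneven Cy3 on the arrays of PWI goats 3 and 4. That of PWI goat 4 left the 3 calls without a value from it. The calls also depend on the handling of marked spots, chosen after a run with 0 calls. In PFI the signal was near background for A_73_120401 and below the offset of 50 for A_73_107408.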
